A study of Mus musculus with 4 samples.

Results

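Autophagy genes encode the proteins that enclose cytoplasm in a double membrane and deliver it to the lysosome for breakdown. The set held 48 genes picked by symbol for their place in the pathway, not by a measured value, though earlier results of these data were known. Of these, 46 were among the 15733 genes of the deposited table, and the X-linked genes Atg4a and Tfe3 were not analysed here. The values came from RNA-seq of mouse pachytene spermatocytes, the meiotic cells whose autosomes are fully synapsed. Dissociated testis cells were exposed in culture to BMH21, a DNA-intercalating inhibitor of RNA polymerase I, at 2.5 µM for 12 h, or to DMSO as the mock treatment, and pachytene cells were then sorted by their Hoechst stain. Each condition had 2 libraries, which the labels call biological replicates; the labels used here name no strain, genotype or age.

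In autophagy the ULK kinase complex starts the process and a class III PI3-kinase complex marks the forming membrane with the lipid PI3P. ATG9 vesicles and ATG2 supply lipid, and ubiquitin-like enzymes couple ATG8 proteins (the LC3 and GABARAP families) to the membrane, where cargo receptors dock before fusion with the lysosome. In pachytene spermatocytes the X and Y chromosomes are transcriptionally silenced, so X-linked members of such a pathway lie in a repressed domain in normal meiosis. Mouse genetics ties the pathway to spermatogenesis, where germ-cell loss of Atg7 disturbs spermatid shaping.

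Total counts ran from 30964370 to 41548269 per library, and the spread within a group exceeded counting noise (the chi-square divided by its degrees of freedom was 3.23 for mock and 3.78 for BMH21). All 12 pachytene markers were listed, with a summed level of 10086 to 10486 CPM per library (CPM being counts scaled to a common library size), and 5 of them rose and 4 fell after BMH21. The lists for spermatids (296 to 316 CPM), spermatogonia (14.1 to 19.4), Sertoli cells (2.05 to 3.55), Leydig cells (6.49 to 9.54), macrophages (6.05 to 7.49), peritubular myoid cells (4.32 to 5.92) and endothelium (2.85 to 4.83) summed to far less. Of their tested genes, 2 of 5 spermatogonial ones fell, as did 1 of 2 Leydig ones, Star; their part in the results was not tested. The leptotene and zygotene list summed to 289 to 290 CPM in mock and 316 to 318 CPM in BMH21, with 1 of 7 genes higher and 2 lower. In sorted bulk samples fewer cells of a type and less RNA per cell cannot be told apart, and a change shared by all mRNAs cannot be seen after scaling.

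Both X-linked members in the table rose from near 0, while the differences of autosomal members were small. Of 45 members tested, 11 rose and 4 fell at an adjusted p under 0.05 (quasi-likelihood test of edgeR, Benjamini-Hochberg over 13793 genes), against 16.5% of all tested genes called higher and 12.5% called lower. The 11 include the X-linked Lamp2 and Wdr45, which passed the count filter only through their BMH21 libraries. Among the 43 autosomal members, 9 rose (20.9%) and 4 fell (9.30%), beside 15.1% and 12.8% of all autosomal genes. Among the 34 autosomal members averaging 10 CPM or more, 8 rose (23.5%) and 3 fell (8.82%), beside 21.1% and 17.4% of autosomal genes of that level. These shares are near the background and are no result about the set. The 4 lower calls were the less stable: without mock replicate 1 there was 1, Atg3, and 0 of the 4, and without mock replicate 2, without BMH21 replicate 2 or in DESeq2 (7.16% of all genes lower) there were 2, Pik3r4 and Atg9a. The median log2 fold change of the autosomal members was 0.02, against -0.0059 over all autosomal genes, and it was -0.02 under upper quartile scaling, -0.0049 with library size alone and -0.0043 without BMH21 replicate 1. The largest called autosomal change was 0.79 on the log2 scale, and 0 of 43 reached a log2 change of 1 in size. Of all autosomal genes 5.70% did, but of those averaging 10 CPM or more, the level of most members, 0.723% did. Tfeb missed the filter on low counts and was not tested.

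**Figure D1:**
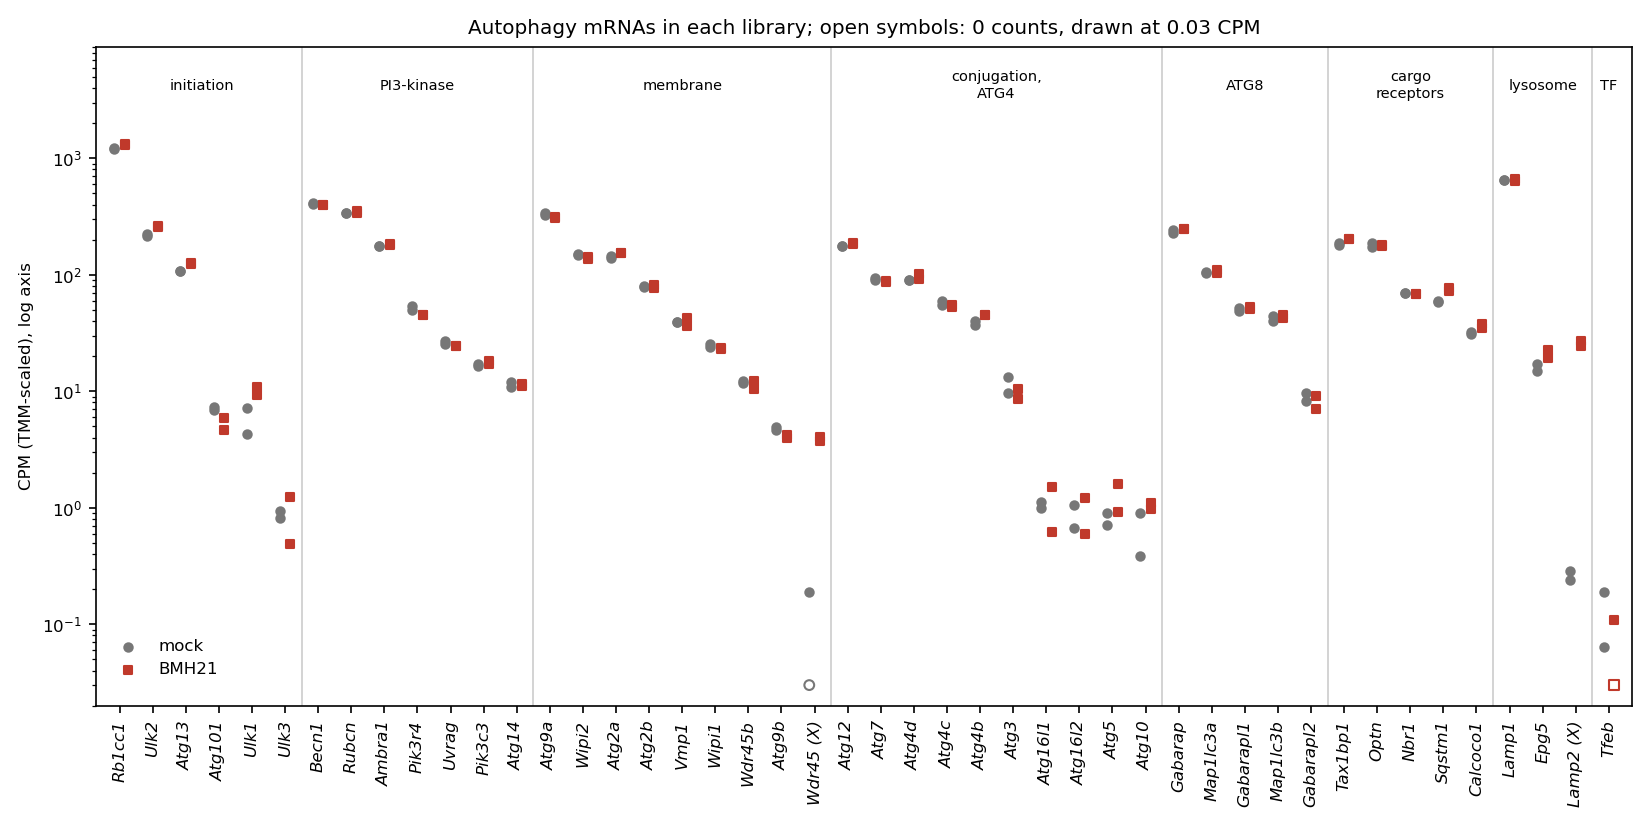
Level of each of the 46 members in every library, in TMM-scaled CPM on a log axis, grouped by role in the pathway and ordered by mock level; circles are the 2 mock and squares the 2 BMH21 libraries, and open symbols mark 0 counts. The X-linked Wdr45 and Lamp2 are the members whose groups lie far apart, and most other members have overlapping or adjoining symbols.

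The X-linked member with the larger change was Lamp2, which encodes a glycoprotein of the lysosomal membrane needed for autophagosome turnover and, in one isoform, for chaperone-mediated autophagy (ENSMUSG00000016534.16, chromosome X, 38401357 to 38456454 on GRCm38, minus strand). It had 10 and 9 counts in mock replicates 1 and 2 and 805 and 1006 counts in BMH21 replicates 1 and 2, which is 0.238, 0.288, 24.3 and 27.2 CPM. Both BMH21 libraries lay far above both mock libraries. The log2 fold change was 6.61 ± 0.21 (SE), with an edgeR adjusted p of 1.18e-38, and 6.47 to 6.74 with 1 library left out. Lamp2 passed the count filter only through its BMH21 libraries, so these edgeR values are a description. Over the pooled counts, 19 in mock and 1811 in BMH21, the ratio was 97.5-fold (exact 95% interval 62.2 to 162, counting error only).

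Wdr45 encodes WIPI4, a PI3P-binding propeller protein that works with ATG2 at the growing membrane (ENSMUSG00000039382.13, chromosome X, 7714333 to 7728206, plus strand). It had 8 and 0 counts in mock and 123 and 150 counts in BMH21, or 0.191, 0, 3.71 and 4.05 CPM; a count of 0 in mock replicate 2 allows up to 0.0969 CPM. Again the groups did not overlap, but the mock level rested on 1 library. The log2 fold change was 5.13 ± 0.47 (SE; edgeR adjusted p = 1.13e-14), and the pooled ratio of 273 to 8 counts was 34.9-fold (exact 95% interval 17.5 to 81.7, counting error only). Without mock replicate 1, which leaves only the mock library at 0, the fitted value was 10.04 and is no bound. Without mock replicate 2 it was 4.32. Wdr45 too passed the count filter only through its BMH21 libraries, so these edgeR values are a description. DESeq2 gave Wdr45 an adjusted p of 0.00966. The overlapping gene Gm45208, which shares 24.7% of the exon bases of Wdr45 on the same strand, had 6, 0, 81 and 102 counts in the same order, and the sources do not say how shared reads were counted.

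Of the 343 X-linked genes tested, 73.2% were called higher with a median log2 fold change of 4.19, so the X-linked members moved as most of these genes did. Lamp2 lay above 88.6% of these genes and Wdr45 above 65.3%. Both passed the count filter only through their BMH21 libraries, which had to be high for them to be tested at all. The edgeR values and calls of both genes, and their median of 5.87, are therefore a description. So are the share, median and ranks over X-linked genes, of which 343 of the 432 in the table were tested. Any of them near 0 in mock had to be high in BMH21 to pass the same filter.

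**Figure D2:**
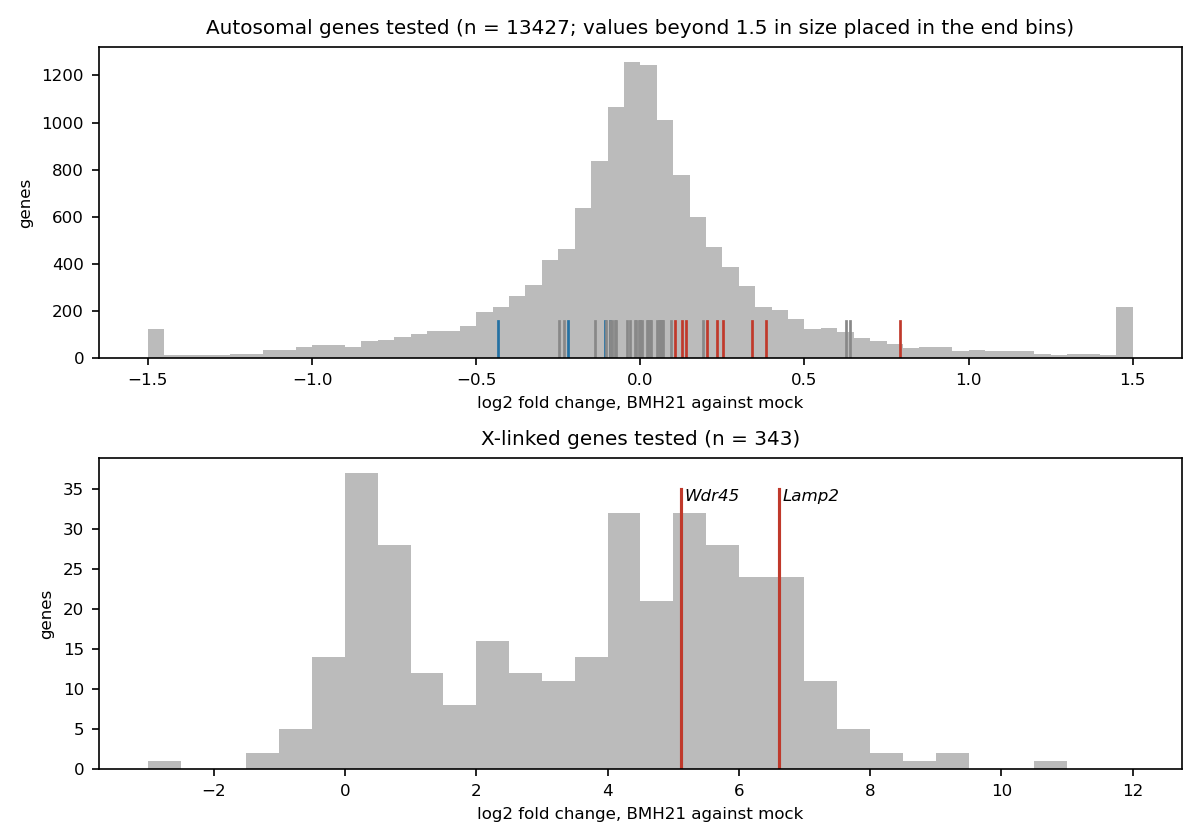
Histograms of the log2 fold change (BMH21 against mock) over all tested autosomal genes (upper panel, members as ticks, red called higher, blue called lower, grey not called) and over the 343 tested X-linked genes (lower panel, members as red lines). The autosomal ticks lie within the bulk of autosomal genes, whereas Wdr45 at 5.13 and Lamp2 at 6.61 lie in the upper hump of the X-linked genes.

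Each of these X-linked genes has an autosomal paralog among the members, which allows a comparison of levels per kilobase of exon. Lamp1, the other major lysosomal membrane glycoprotein gene (ENSMUSG00000031447.8, chromosome 8, 13159161 to 13175338, plus strand), was at 650 and 643 CPM in mock and at 658 and 632 CPM in BMH21. Its log2 fold change was -0.0043 ± 0.02 (SE; edgeR adjusted p = 0.930; 95% interval -0.05 to 0.04). Per kilobase Lamp1 was the most abundant member, at 242 CPM per kb in mock, above 99.2% of 15670 genes. Lamp2 stood at 0.0103% and 0.0125% of the Lamp1 level per kilobase in the mock libraries and at 1.03% and 1.20% in the BMH21 libraries. Thus Lamp2 rose strongly and still remained a small fraction of Lamp1.

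The promoter sequences of Lamp1 and Lamp2 are shown because these paralogs moved so differently and because Lamp1 is a textbook target of TFEB and TFE3, which bind the letters CACGTG within a longer element named CLEAR. Each run is the 250 bases before the RefSeq start on GRCm38.p6, 5′ to 3′ on the gene's strand, with CACGTG in capitals.
Lamp1: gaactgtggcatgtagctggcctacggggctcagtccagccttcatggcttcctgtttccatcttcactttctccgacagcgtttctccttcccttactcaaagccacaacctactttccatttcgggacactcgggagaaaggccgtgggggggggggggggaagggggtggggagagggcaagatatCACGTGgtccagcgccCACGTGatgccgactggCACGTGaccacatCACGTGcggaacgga
Lamp2: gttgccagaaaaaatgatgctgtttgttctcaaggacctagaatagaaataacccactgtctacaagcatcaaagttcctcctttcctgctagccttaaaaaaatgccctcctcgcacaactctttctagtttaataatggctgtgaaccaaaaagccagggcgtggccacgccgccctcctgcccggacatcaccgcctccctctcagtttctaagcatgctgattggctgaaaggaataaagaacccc
The windows lie at chr8:13158911-13159160 on the plus strand (Lamp1) and chrX:38456461-38456710 on the minus strand (Lamp2). Lamp1 held 4 copies of CACGTG, and Lamp2 held 0. Lamp1 is autosomal and Lamp2 X-linked, so promoter letters and chromosome cannot be told apart in this pair. Any link of the letters to the changes was not tested. No sequence is shown for Wdr45, whose RefSeq window lies inside the span of the gene given above and so does not cover its upstream starts. The motif is its own reverse complement, so a search of 1 strand covers both. Of 32851 windows of this length in the RefSeq table, 6.02% held CACGTG. A window was found for 38 of the 46 members, with 46 windows in all. Of these windows 5 held the letters, those of Atg3, Atg5, Atg7, Lamp1 and Rubcn. Of these 5 genes 0 were called in either direction. They are too few to set against the 15.1% and 12.8% of autosomal genes called higher and lower.

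Wdr45b, which encodes the related propeller WIPI3 (ENSMUSG00000025173.14, chromosome 11, 121327224 to 121354445, minus strand), was at 11.8 and 12.2 CPM in mock and 12.2 and 10.4 CPM in BMH21. Its groups overlapped, and its log2 fold change was -0.09 ± 0.13 (SE; edgeR adjusted p = 0.667; 95% interval -0.34 to 0.16). Wdr45 was at 2.22% of the Wdr45b level per kilobase in mock replicate 1 and at 0 in mock replicate 2, against 42.0% and 53.7% in BMH21 replicates 1 and 2. The X-linked paralog thus came within a few-fold of the autosomal one in this family, unlike in the LAMP family.

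**Figure D3:**
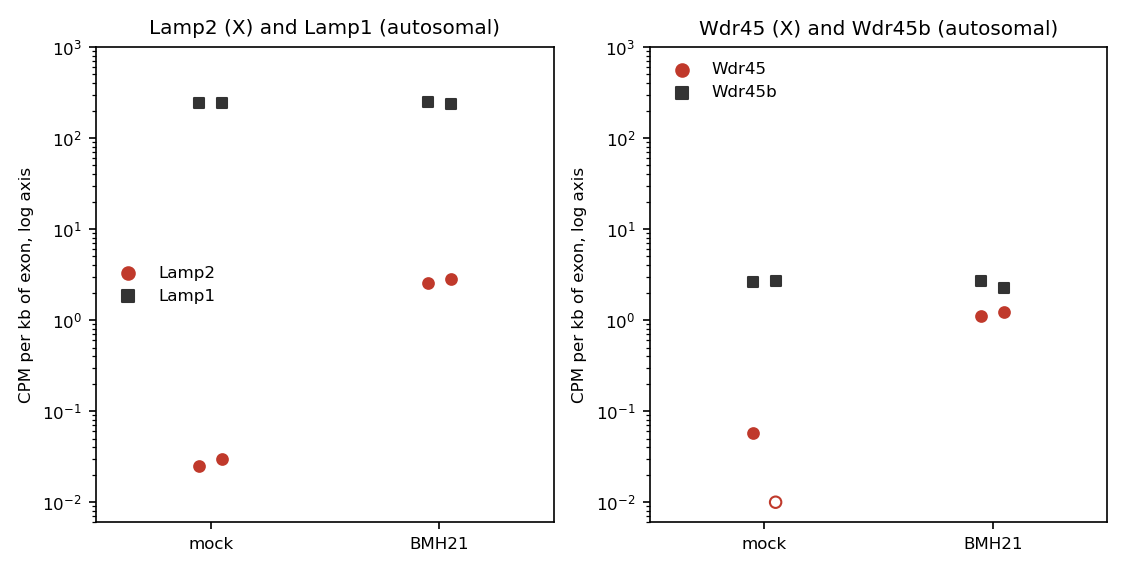
Levels per kilobase of exon (CPM per kb, log axis) of the X-linked genes Lamp2 and Wdr45 (red circles) and their autosomal paralogs Lamp1 and Wdr45b (black squares) in each mock and BMH21 library; the open circle is 0 counts. The autosomal genes stay near their mock level, Lamp2 rises to 1.03% and 1.20% of Lamp1, and Wdr45 to 42.0% and 53.7% of Wdr45b.

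Counts by role rest on 3 to 10 genes each, the X-linked Wdr45 and Lamp2 included, and were not tested against other genes. They stand beside the 15.1% of autosomal genes called higher and the 12.8% called lower. Of the 6 members of the initiation complex, 4 rose, 1 fell and 1 was not called. The 4 rises kept their calls whichever library was left out, and DESeq2 made them too; of these 5 fits, the fall kept its call in 1, the one without BMH21 replicate 1. Ulk1 and Ulk2 encode the kinases that start autophagosome formation. Ulk2 (ENSMUSG00000004798.15, chromosome 11, 61775649 to 61855073, minus strand) was at 214 and 223 CPM in mock and at 256 and 264 CPM in BMH21. It rose by 0.25 ± 0.03 (SE) on the log2 scale, 1.19-fold, with an edgeR adjusted p of 2.09e-09, the smallest among the autosomal members. Ulk1 (ENSMUSG00000029512.12, chromosome 5, 110784488 to 110810097, minus strand) was at 7.15 and 4.32 CPM in mock and at 9.24 and 10.9 CPM in BMH21. All BMH21 values exceeded all mock values for both kinases, but the mock replicates of Ulk1 differed widely. Its log2 fold change was 0.79 ± 0.16 (SE; edgeR adjusted p = 7.12e-05); it was 0.49 without mock replicate 2 and 1.22 without mock replicate 1, called in both. Ulk2 made up 97.1% ± 0.83 of the ULK level per kilobase in mock and 96.1% ± 0.58 after BMH21 (± SD of 2 libraries), so the kinase with the larger fold change was a minor part of the family.

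The scaffold subunits of the complex also rose. Rb1cc1, which encodes the scaffold FIP200 (ENSMUSG00000025907.15, chromosome 1, 6206197 to 6276648, plus strand), was the member with the highest CPM, at 1210 and 1225 in mock and 1285 and 1335 in BMH21. The rise was small, 0.11 ± 0.02 (SE) on the log2 scale, 1.08-fold, and it was called (edgeR adjusted p = 3.71e-05). Atg13, the subunit that links ULK to FIP200 (ENSMUSG00000027244.15, chromosome 2, 91674618 to 91710576, minus strand), was at 108 and 108 CPM in mock and 123 and 125 CPM in BMH21. It rose by 0.20 ± 0.04 (SE; edgeR adjusted p = 1.19e-04). Atg101, whose protein stabilises ATG13, moved the other way, from 6.91 and 7.26 CPM in mock to 5.86 and 4.64 CPM in BMH21. It fell by 0.43 ± 0.17 (SE) on the log2 scale with an edgeR adjusted p of 0.0461, a call that DESeq2 did not make (adjusted p = 0.194) and that was lost when mock replicate 1 (-0.47), mock replicate 2 (-0.40) or BMH21 replicate 2 (-0.28) was left out. Ulk3, a related kinase, was at 0.483 to 1.24 CPM over the libraries and its 95% interval of -0.97 to 0.99 left its direction undetermined.

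In the class III PI3-kinase group 1 of 7 members fell and 0 rose at the adjusted threshold in edgeR; 0 rose also at an unadjusted p under 0.05 and by DESeq2. The member that fell was Pik3r4, which encodes the regulatory subunit VPS15 (chromosome 9, 105642978 to 105687657, plus strand). It was at 54.22 and 50.05 CPM in mock and 44.68 and 45.02 CPM in BMH21, with no overlap between groups. The log2 fold change was -0.22 ± 0.07 (SE; edgeR adjusted p = 0.00740), and the call was lost without mock replicate 1 (-0.16). Becn1, the Beclin 1 scaffold of the complexes and the most abundant member of this group per kilobase, was at 409 and 402 CPM in mock and 393 and 396 CPM in BMH21 (log2 fold change -0.04, edgeR adjusted p = 0.293). Becn1 was called lower under upper quartile scaling (-0.09) and with library size alone (-0.07), and 43.9% of its exon bases overlap Cntd1 on the opposite strand. The catalytic subunit gene Pik3c3 had a log2 fold change of 0.06, the autophagy-specific subunit gene Atg14 -0.01, the endosomal subunit gene Uvrag -0.11, the inhibitor gene Rubcn 0.02 and the Beclin regulator gene Ambra1 0.05, and none of these 5 was called. Per kilobase these subunits were unequal in mock, with 57.4 CPM per kb for Becn1, 5.40 for Pik3r4, 3.76 for Pik3c3 and 2.64 for Atg14.

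Genes of membrane supply and PI3P binding went both ways, with 2 of 9 higher, one of them the X-linked Wdr45, and 2 lower. Atg2a, which encodes a lipid-transfer protein (chromosome 19, 6241668 to 6262335, plus strand), was at 139 and 144 CPM in mock and 154 and 154 CPM in BMH21. Its log2 fold change of 0.13 ± 0.04 (SE; edgeR adjusted p = 0.00782) lost its call without mock replicate 1 (0.10) and under upper quartile scaling (0.08). Its paralog Atg2b was at 77.4 to 80.9 CPM over the 4 libraries, with overlapping groups. Atg9a, the gene of the vesicle lipid scramblase (chromosome 1, 75180860 to 75192196, minus strand), fell from 336 and 323 CPM to 312 and 306 CPM, a log2 change of -0.09 ± 0.03 (SE; edgeR adjusted p = 0.0107). Wipi2, a PI3P effector that recruits the conjugation machinery (chromosome 5, 142627698 to 142670588, plus strand), fell from 152 and 147 CPM to 142 and 135 CPM (-0.11 ± 0.04 (SE; edgeR adjusted p = 0.0317)). Both falls were under 10% in size, and for both genes the groups did not overlap. Without mock replicate 1 neither Atg9a (-0.06) nor Wipi2 (-0.08) was called; Wipi2 also lost its call without mock replicate 2 (-0.13), without BMH21 replicate 2 (-0.07) and in DESeq2 (adjusted p = 0.121). Of the exon bases of Atg9a, 31.8% are shared with the transcript model Gm29253 on the same strand. Atg9b (-0.23), Wipi1 (-0.09) and the scramblase gene Vmp1 (0.02) were not called.

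Of 10 conjugation enzyme and ATG4 protease genes tested, 1 rose (10%, beside 15.1% of autosomal genes) and 0 fell in edgeR, with 1 and 0 at an unadjusted p under 0.05 and 0 lower by DESeq2. Atg4b encodes the main protease that trims and releases ATG8 proteins (ENSMUSG00000026280.18, chromosome 1, 93751500 to 93790610, plus strand). It was at 39.7 and 36.7 CPM in mock and 45.1 and 44.8 CPM in BMH21, so the groups did not overlap. The rise of 0.23 ± 0.07 (SE; edgeR adjusted p = 0.00820) lost its call without mock replicate 2 (0.18). The other proteases in the table were not called: Atg4c was at 54.5 and 58.9 CPM in mock and 52.8 and 54.4 CPM in BMH21, and Atg4d at 89.9 and 90.4 against 101 and 91.6 CPM. Atg4d had a log2 fold change of 0.09 and was called without BMH21 replicate 2 (0.16), and 19.3% of its exon bases overlap Kri1, a gene on the opposite strand that rose. Atg4b was 13.6% ± 1.05 of the summed level per kilobase of the 3 proteases in mock and 15.7% ± 0.20 after BMH21 (± SD of 2 libraries).

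Of the 3 parts of the ATG12-ATG5-ATG16L1 ligase, Atg12 had by far the highest mRNA level. In mock, Atg12 was at 22.9 CPM per kb, Atg5 at 0.342 and Atg16l1 at 0.110, the last above 17.6% of all genes. The order of Atg5 and Atg16l1 rests on the length used, since in CPM they were at 0.805 and 1.06 in mock. For Atg16l1 the union of exons is 9628 bases and the longest transcript 3751. The conjugating enzyme genes Atg7 (E1-like) and Atg3 (E2-like, for ATG8) were at 13.1 and 3.61 CPM per kb, and Atg10, the E2-like enzyme for ATG12, at 0.375. None of these was called. For the abundant Atg12 (0.06; 95% interval -0.0069 to 0.13) and Atg7 (-0.07; -0.17 to 0.02) the intervals were narrow, whereas for Atg5 (0.63; -0.26 to 1.52), Atg10 (0.64; -0.36 to 1.64) and Atg16l1 (-0.0012; -0.88 to 0.88) the counts of 12 to 53 per library left wide intervals, so modest changes were not detectable at this depth. Atg3 had a log2 fold change of -0.25 and was called lower without mock replicate 1 (-0.46).

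The 5 ATG8 genes, whose proteins are lipidated onto the membrane, gave 0 calls in edgeR and 0 in DESeq2. Before adjustment, Gabarap alone had an edgeR p under 0.05, so 1 was higher and 0 lower. Gabarap was at 230 and 241 CPM in mock and 249 and 244 CPM in BMH21 (log2 fold change 0.07 ± 0.03 (SE), edgeR adjusted p = 0.113). Map1lc3a was at 102 and 106 CPM against 109 and 104 CPM, and the log2 fold changes of Map1lc3b, Gabarapl1 and Gabarapl2 were 0.06, 0.03 and -0.14. The makeup of the family by level per kilobase differed little between groups: Gabarap made up 50.9% ± 0.43 in mock and 51.6% ± 0.29 in BMH21, and Map1lc3a 35.3% ± 0.036 and 34.9% ± 0.60 (± SD of 2 libraries). Map1lc3b, the form most often used to follow autophagy, was 2.23% ± 0.11 of the family in mock. Gabarapl2 shares 8.81% of its 50-base words with a processed pseudogene, Gm3724, so its reads are partly ambiguous, and 28.3% of the exon bases of Gabarapl1 overlap 1700101I11Rik on the opposite strand.

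Of 5 cargo receptors, 2 rose, 0 fell and 3 were not called, too few to set against the 15.1% and 12.8% of autosomal genes. Sqstm1 encodes p62, which carries ubiquitylated cargo to ATG8 proteins (ENSMUSG00000015837.16, chromosome 11, 50199366 to 50210827, minus strand). It was at 59.4 and 58.7 CPM in mock and 72.2 and 77.3 CPM in BMH21, and the groups did not overlap. Its log2 fold change was 0.34 ± 0.06 (SE), 1.27-fold, with an edgeR adjusted p of 1.29e-06, and 0.29 to 0.39 with 1 library left out. Of its exon bases, 17.3% overlap Mrnip on the opposite strand, which fell (log2 fold change -0.32, edgeR adjusted p = 0.0173). Tax1bp1, a ubiquitin-binding receptor gene (ENSMUSG00000004535.13, chromosome 6, 52713729 to 52766780, plus strand), was at 185 and 181 CPM in mock and 201 and 203 CPM in BMH21, a rise of 0.14 ± 0.03 (SE; edgeR adjusted p = 0.00119). Calcoco1, an ER-phagy receptor gene, was at 32.2 and 30.9 against 37.6 and 34.6 CPM with an edgeR adjusted p of 0.0549, and was called with TMM factors from autosomal genes (0.20), over genes of at least 5 CPM (0.19) and without BMH21 replicate 2 (0.25). Optn (172 and 188 against 177 and 178 CPM), the most abundant receptor per kilobase, and Nbr1 (69.9 and 70.0 against 68.5 and 68.3 CPM) were not called.

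At the lysosome, Epg5, which encodes a tether for autophagosome fusion, rose from 17.0 and 14.9 CPM to 19.2 and 22.4 CPM. The log2 fold change was 0.38 ± 0.10 (SE; edgeR adjusted p = 0.00293), and the call was lost without mock replicate 2 (0.30) or BMH21 replicate 2 (0.26). Tfeb, the transcription factor of lysosomal and autophagy genes, had 8 and 2 counts in mock and 0 and 4 counts in BMH21, at most 0.191 CPM, so its level was near the detection limit in every library and a change was not detectable at this depth.

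**Figure D4:**
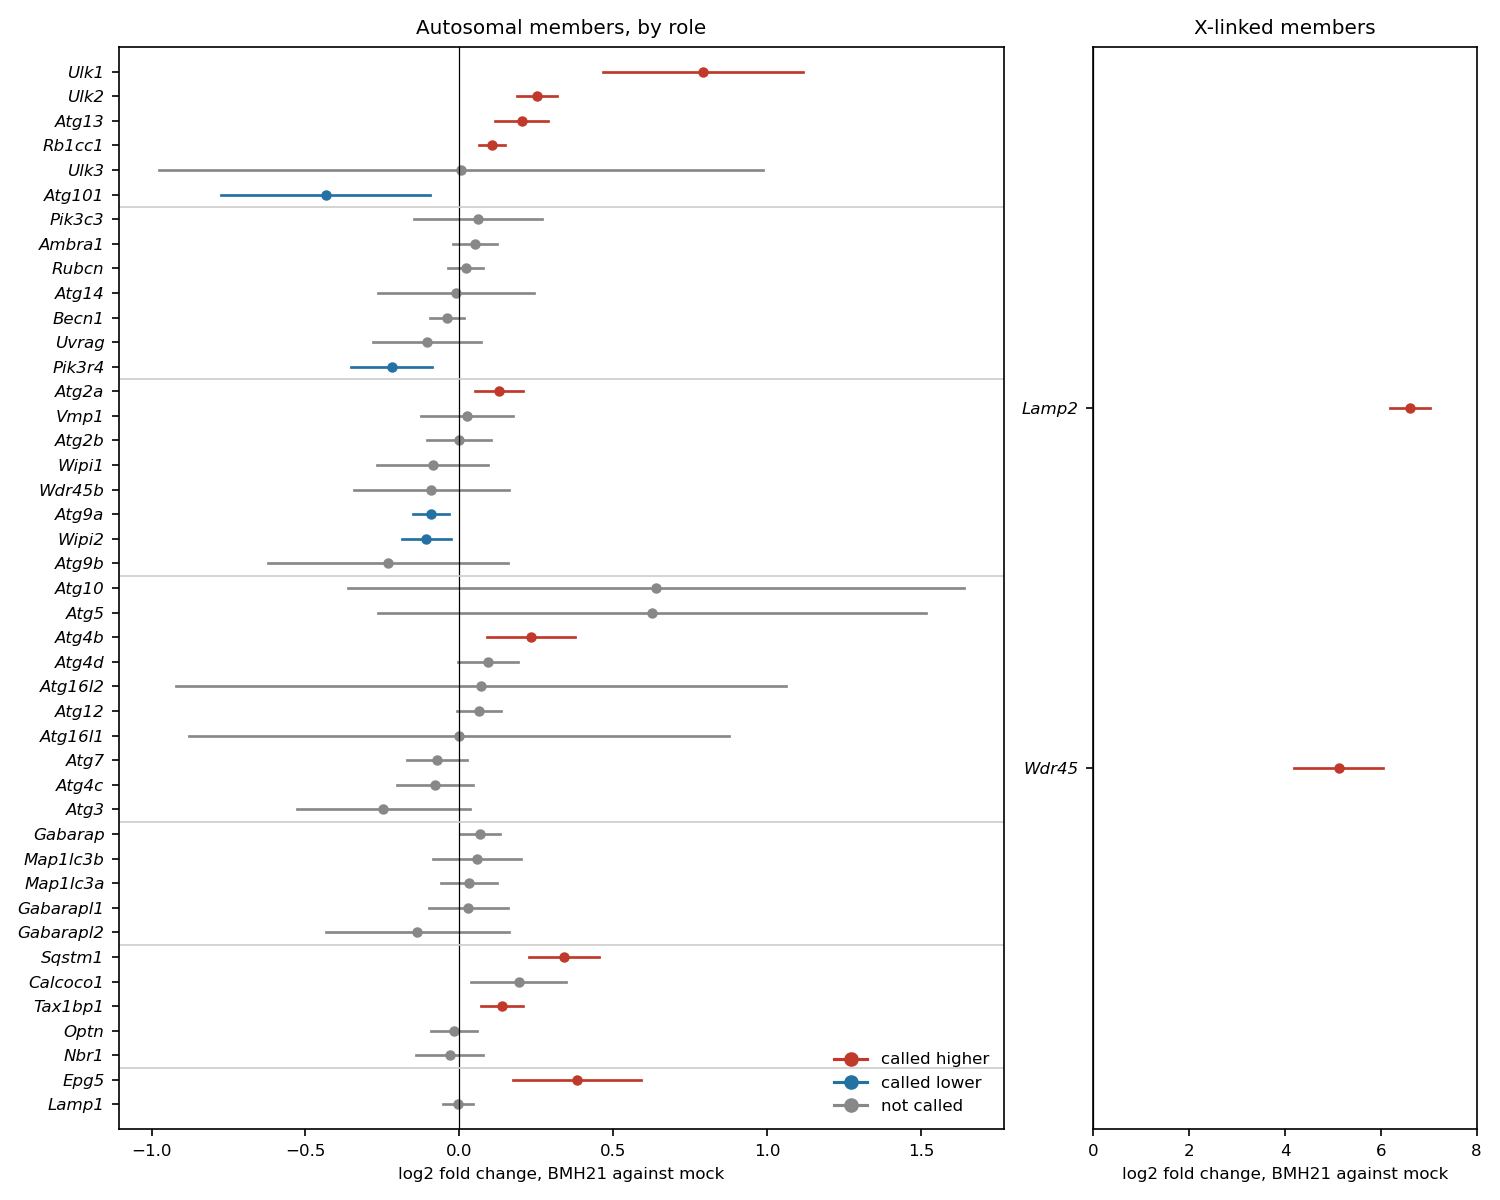
Log2 fold changes (BMH21 against mock) of the 45 tested members, points, with 95% intervals from the edgeR fit, lines, grouped by role from the initiation complex (top) to the lysosome (bottom); the right panel has a wider axis for the X-linked members. Most called autosomal changes are small, and the wide grey lines belong to weakly expressed genes such as Atg10, Atg5, Ulk3 and Atg16l1.

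For most of the 30 autosomal members without a call the data bound the change closely. The 95% interval lay within 0.25 on the log2 scale of no change for 16 of them, within 0.5 for 23 and within 1 for 27. The median size of the called changes was 0.22 among the autosomal members and 0.32 among all called autosomal genes. Over the 45 tested members, 19 had both BMH21 libraries above both mock libraries (42.2%) and 11 below (24.4%), beside 30.9% and 29.9% of all tested genes; in 15 the groups overlapped. The autosomal members made up 17 of the 19 and all 11 of the others, beside 29.5% above and 30.7% below over all autosomal genes. At 10 CPM or more, 14 of 34 autosomal members lay above and 9 below, beside 35.6% and 33.3% of such genes. Over the tested X-linked genes, 84.3% lay above and 1.75% below.

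Genes that act around the core machinery were described from 7 lists with 124 names in all, of which 107 were tested. Of these 21 rose and 14 fell; among the 103 autosomal ones 18 rose (17.5%) and 13 fell (12.6%), close to the 15.1% and 12.8% of all autosomal genes. The autosomal genes of these lists had a median of 32.5 CPM, against 14.6 CPM over all autosomal genes. Of autosomal genes averaging 10 CPM or more, 21.1% rose and 17.4% fell. The shares are no result about the lists. Without BMH21 replicate 2 the counts were 12 and 9, without mock replicate 1 they were 18 and 9, and DESeq2 gave 14 and 9.

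The counts of these lists include 4 X-linked genes, Atp6ap1, Atp6ap2, Gla and Foxo4. They stand beside the 15.1% higher and 12.8% lower over all autosomal genes and were not tested against them. Of 8 tested genes for AMPK and its activator LKB1, 3 fell and 1, Strada, rose by 0.08, a call lost in DESeq2 and under upper quartile scaling (0.04). Without mock replicate 2 or BMH21 replicate 2, and in DESeq2, the list had 0 higher and 2 lower. Prkag2, an AMPK regulatory subunit gene, went from 298 and 296 CPM to 264 and 268 CPM (log2 fold change -0.16, edgeR adjusted p = 1.88e-05). Stk11, the LKB1 gene, went from 153 and 156 CPM to 135 and 140 CPM (-0.17, edgeR adjusted p = 4.00e-04). Prkaa1, the gene of a catalytic subunit, had a log2 fold change of -0.23, a call that DESeq2 did not make (-0.23) and that was lost when mock replicate 2 (-0.20), BMH21 replicate 1 (-0.24) or BMH21 replicate 2 (-0.23) was left out. Of 24 tested mTORC1 and nutrient-sensing genes, 0 rose and 2 fell in edgeR, with 2 higher and 4 lower at an unadjusted p under 0.05 and 0 higher by DESeq2; the list median was -0.03. The 2 were Lamtor3, a Ragulator subunit gene (2.88 and 3.39 against 1.66 and 1.40 CPM), and Fnip2, a folliculin partner gene (-0.48), whose call was lost without mock replicate 1 (-0.39), without BMH21 replicate 2 (-0.44) and in DESeq2 (-0.48).

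Downstream, 6 of 14 fusion genes rose and 2 fell. The counts were 3 and 1 without BMH21 replicate 2, where Ykt6, Stx17 and Arl8b lost their calls, 4 and 3 without mock replicate 2, 5 and 1 without mock replicate 1, 4 and 2 without BMH21 replicate 1, and 4 and 1 in DESeq2. Vps39, a HOPS tethering subunit gene, rose from 56.3 and 55.9 CPM to 67.2 and 68.7 CPM (log2 fold change 0.28, edgeR adjusted p = 9.04e-05), and the SNARE gene Ykt6 rose by 0.19, a call lost without BMH21 replicate 2 (0.15). Vps11, another subunit of the same tether, fell from 79.1 and 89.4 CPM to 67.3 and 68.9 CPM (-0.30, edgeR adjusted p = 7.37e-06). Members of 1 complex thus moved in opposite directions. Of 17 organelle-selective receptor and mitophagy genes 4 rose and 0 fell in edgeR, with 6 and 0 at an unadjusted p under 0.05 and 0 lower by DESeq2. The absence of lower calls depended on scaling. Under upper quartile scaling 3 were higher and 3 lower, and with library size alone 3 were higher and 2 lower. Phb2, 1 of the 4, rose by 0.19, a call lost in DESeq2 and under upper quartile scaling (0.14). Sec62, an ER-phagy receptor gene, rose from 59.6 and 60.3 CPM to 77.8 and 74.0 CPM (0.34), Usp30, a mitophagy-opposing deubiquitinase gene, rose by 0.25, and Bnip3, a mitophagy receptor gene, rose by 0.87 but lost its call without BMH21 replicate 1 (0.59).

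The X-linked genes of the V-ATPase and lysosomal lists were called higher, as were 73.2% of the 343 tested X-linked genes. Of 17 V-ATPase genes, which encode the proton pump that acidifies lysosomes, 5 rose and 3 fell. The X-linked accessory subunit genes Atp6ap2 and Atp6ap1, both among the 5, rose from near 0 as Lamp2 did. Atp6ap2 was at 0.501 and 0.384 CPM in mock and 44.6 and 44.3 CPM in BMH21. Atp6ap1 was at 0 and 0.0640 CPM in mock and 10.3 and 11.3 CPM in BMH21. Atp6ap1 passed the filter through its BMH21 libraries only. The autosomal Atp6v1b2 fell from 99.4 and 99.1 CPM to 79.7 and 79.6 CPM (log2 fold change -0.32, edgeR adjusted p = 1.99e-07). Of 23 lysosomal hydrolase and membrane genes 4 rose (17.4%), among them the X-linked Gla, and 3 fell (13.0%), near the background. Gla (0.143 and 0.0640 CPM in mock, 0.483 and 0.702 CPM in BMH21) passed the count filter only through its BMH21 libraries, so its rise is a description. Its call was lost without mock replicate 1 (3.14) or BMH21 replicate 1 (2.67). Gla and Psap lost their higher calls without mock replicate 2, without BMH21 replicate 2 and in DESeq2, which each left 2 higher, and without mock replicate 1 or BMH21 replicate 2 there was 1 lower. Ctsf, a cathepsin gene, rose from 3.91 and 2.82 CPM to 7.64 and 9.85 CPM (1.36), Npc2, a cholesterol carrier gene, rose by 0.44, and Mcoln1, a lysosomal calcium channel gene, fell by 0.76 on the log2 scale, a call lost without mock replicate 1 (-0.60). Of 4 factors of the FOXO and MiT/TFE lists, Foxo1 rose (1.43 and 1.15 against 2.35 and 3.24 CPM; lost without BMH21 replicate 2, 0.85) and the X-linked Foxo4 was called lower (0.620 and 0.576 against 0.181 and 0 CPM). Foxo4 passed the count filter only through its mock libraries, where it had to be high to be tested, so its values are a description. DESeq2 did not call Foxo4 (-2.76), nor did edgeR without either mock library (-2.67 without replicate 1, -2.78 without replicate 2) or without BMH21 replicate 2 (-1.71), and its fitted value without BMH21 replicate 1 (-7.47) is no bound, since the remaining BMH21 library was at 0.

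**Figure D5:**
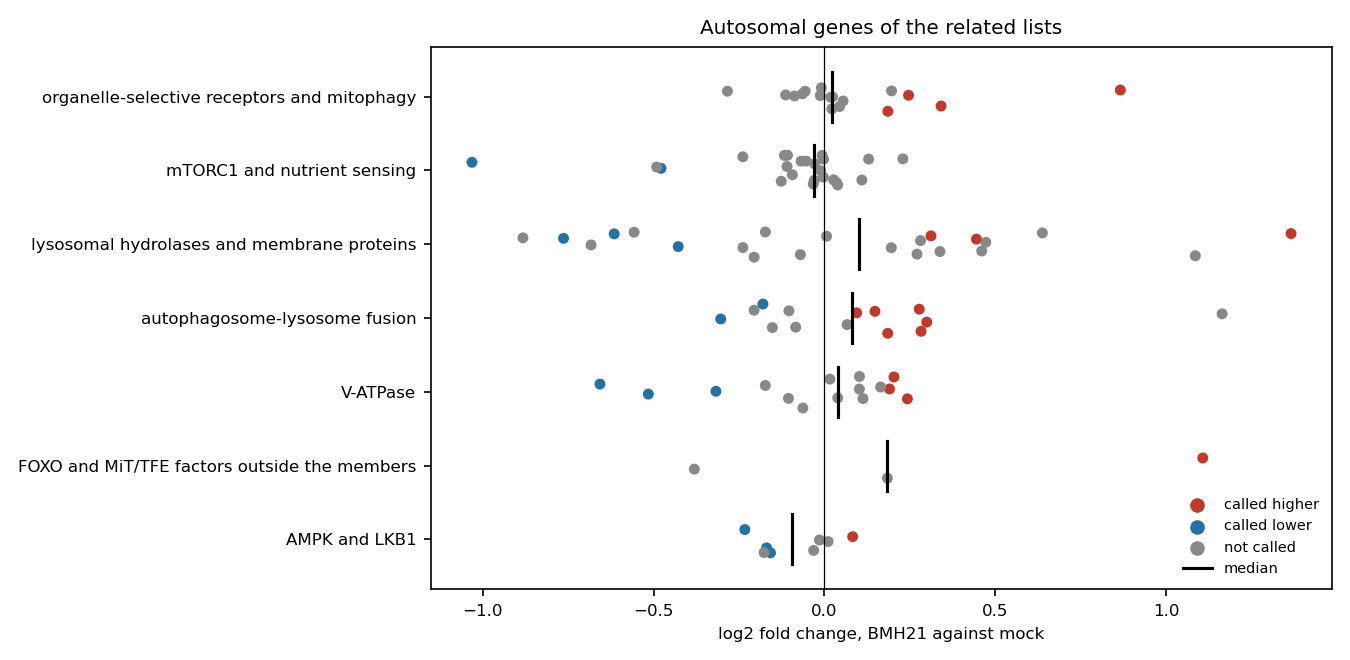
Log2 fold changes (BMH21 against mock) of the tested autosomal genes of the 7 related lists, 1 point per gene, red called higher, blue called lower and grey not called, with list medians as black lines; the vertical spread within a list carries no value. Points fall on both sides of 0 in every list shown, with 3 lower and 1 higher call among the AMPK and LKB1 genes.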

How the data were processed

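TRIzol-extracted RNA went into stranded mRNA libraries, per the labels' protocols. The submitters' processing notes name fastp, STAR, SAMtools, featureCounts, DESeq2 and mm10 with no versions, and no source states whether counting used strand. The deposited table gives raw counts per gene and library, from which all tests here start. Its size-factor-normalized values (signal), log2 fold changes, Wald score and p-values are the authors' own, per the file headers, and entered no result. The lowest total count of a listed gene was 4.

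Genes were kept by filterByExpr (minimum count 10), scaled by TMM and tested in R 4.3.3 with edgeR 4.0.16 (quasi-likelihood, group alone); 13793 genes were tested and 1940 removed. DESeq2 1.42.0 was an alternative. SE is the size of the log2 fold change divided by the square root of F. Since each group had 2 libraries, edgeR shared information on the spread across genes. Counts are given as CPM with TMM-scaled library sizes, and per kilobase of the union of exons in GENCODE M21 where genes are compared. Positions are those of GENCODE M21 (GRCm38, 1-based), because the table's own positions equal them for only 369 of 15670 genes matched by identifier. Promoter windows are from RefSeq. Exact intervals and the floor of 3 counts cover counting error only.

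The members and lists were chosen with earlier results of these data known. Values in full were given for called members, X-linked members with their paralogs and the most abundant member of each role per kilobase, and for up to 3 called genes of each related list by p; other genes named were chosen after their values were seen. Alternatives were other scalings and filters, DESeq2, the replicate number as a block and leaving out each library.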

Additional observations from a re-analysis of the deposited data

How the results depend on the processing

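Leaving out 1 library gave 9 to 12 members higher and 1 to 4 lower (11 and 4 with all libraries), with 0 of the 4 lower members shared without mock replicate 1; 12 to 18 related-list genes higher and 9 to 14 lower (21 and 14); 1805 to 2057 genes higher and 1180 to 1492 lower in all (2282 and 1731); and an X-linked median of 5.53 to 8.25. DESeq2 called 11 members higher (10.9% of all genes) and 2 lower (7.16%), 9 related-list genes lower, and 1712 genes higher and 1127 lower in all. Under upper quartile scaling 23 related-list genes were lower, the split over all genes was 1805 higher and 2480 lower (42.1% higher, against 56.9%), and log2 fold changes shifted by -0.05. With library size alone the split was 1968 and 2181 (47.4% higher). Over genes of at least 5 CPM the X-linked median was 6.61, since fewer members were tested. With the longest transcript as length, Lamp2 was at 0.0252% of Lamp1 in mock and 2.47% in BMH21 (0.0114% and 1.12% with the union of exons). Other levels and shares per kilobase are given with the union of exons only. For some members it is far longer than the longest transcript, as for Atg4b (8278 against 4186 bases) and Map1lc3b (7517 against 4138), which lowers their shares. The median over autosomal members stayed between -0.02 and 0.05 under all 12 alternatives.

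Libraries share replicate numbers across groups but no label pairs them, and same-numbered libraries did not deviate together (correlation 0.0125 across genes). With the replicate number as a block 11 members were higher and 3 lower, Atg101 losing its call (-0.44), and 2189 genes were higher and 1595 lower in all. The causes were not tested.

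Weakly expressed members such as Atg5, Atg10 and Ulk3 carry wide intervals at this depth.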
